A study of Homo sapiens with 6 samples.

Results

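The genes described here are 37 genes of the ATF4 response, the program by which cells meet amino acid shortage and other stress. They were taken by symbol from a given list, and all 37 were found among the 28008 symbols of the count table and the 25673 symbols of the TPM table. They were divided by role into 12 synthesis enzymes, 8 amino acid transporters and 17 stress regulators. RNA-seq had been performed on H660/tet-MUC1shRNA cells, a derivative of the neuroendocrine prostate cancer (NEPC) line NCI-H660 carrying one MUC1 shRNA in a doxycycline-inducible pLKO-tet-puro vector under puromycin selection. The vehicle group received 0.1% DMSO (DOX-negative, n = 3) and the silenced group received doxycycline at 500 ng/ml (DOX-positive, n = 3), so both carried the hairpin and only the second was induced. All libraries came from 1 line transduced with 1 hairpin. Cells with a control hairpin and DOX were not analysed here, and MUC1 silencing and DOX itself therefore cannot be told apart.

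ATF4 is a transcription factor made mainly by translational control. When any of the eIF2α kinases (PERK, GCN2, PKR and HRI) phosphorylates eIF2α, general protein synthesis slows while the ATF4 mRNA is translated more, so ATF4 activity is not read directly from the ATF4 transcript. ATF4 pairs with other bZIP factors, CEBPG and CEBPB among them, on C/EBP-ATF response elements and switches on amino acid synthesis enzymes, amino acid importers, aminoacyl-tRNA synthetases and stress regulators such as DDIT3 (CHOP) and TRIB3.

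Total counts per library were between 47620696 and 74061121. MUC1, the target of the hairpin, went from 86.0 ± 5.65 to 34.6 ± 4.08 CPM (SD, n = 3), where CPM are counts scaled to library size with TMM factors. Its log2 fold change was -1.32 (SE 0.096, edgeR adjusted p = 0.00017). The neuroendocrine identity was checked with 8 markers, whose summed level was 895.1 to 1007 CPM without DOX and 799.8 to 889.9 CPM with DOX. Of the 8, NCAM1 (-0.50, edgeR adjusted p = 0.014) and INSM1 (-0.45, edgeR adjusted p = 0.039) were lower with DOX. Summed levels of 6 fibroblast markers (25.1 to 30.6 CPM without DOX and 23.4 to 27.9 CPM with DOX) and of 6 immune and endothelial markers (4.27 to 5.90 CPM and 8.08 to 10.4 CPM) were low, with COL3A1, DCN, PDGFRB, PTPRC and LYZ under 0.1 CPM in every library. Of these 12 genes, COL1A1, LUM, CD68, VWF and CDH5 passed the test and were higher with DOX. COL1A2 was at 18.1 ± 3.48 CPM without DOX and 11.1 ± 3.77 CPM with it (SD, n = 3; -0.71, edgeR adjusted p = 0.20). The part of these markers in the results below was not tested.

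To show the regulatory sequence next to the genes, start sites of the members were examined in RefSeq promoter windows (GRCh38.p14), which run from 250 bases before to 50 bases after a start. Windows were matched for 30 of the 37 members, 49 windows in all. PSPH, SHMT2, ALDH1L2, PYCR1, SLC7A11, NUPR1 and EIF4EBP1 were the others. The core letters of the C/EBP-ATF response element, TGATGNAA on either strand, were found in the windows of 9 of the 30 members (30%), against 4.46% of all 27305 genes with windows and 2.90% of the tested genes with windows. The stricter form TGATGCAA, which lies within it, was found for 5 of the 30 members (16.7%) against 1.08% of all genes. Many members are on the list because they are known ATF4 targets, so these shares describe the list. Among the members that later passed the test as higher with DOX, 3 of 9 with windows held TGATGNAA, and among those that did not pass the test 6 of 20 did.

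The stretches below hold matches in members that rose, with the match in capitals and each sequence 5′ to 3′ on the strand of its gene. They are ATF3 (chr1:212565190-212565249, plus strand, 60 bases), SLC1A4 (chr2:64989381-64989410, plus strand, 30 bases) and SLC7A1 (chr13:29595663-29595692, minus strand, 30 bases). Counted from the start of its window, the match begins at base -191 for ATF3 and -7 for SLC1A4. Each of these 2 genes has 2 windows, and only 1 holds a match. For SLC7A1 the match begins at base 8, past the start. PPP1R15A (chr19:48872337-48872396, plus strand) held no TGATGNAA and 1 match of another bZIP motif, the cAMP response element TGACGTCA, which is a palindrome. TGACGTCA was found for 2.25% of all genes, 3.53% of the tested genes with windows and 1 of the 30 members (3.33%).
ATF3: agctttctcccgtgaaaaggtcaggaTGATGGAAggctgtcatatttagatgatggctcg
SLC1A4: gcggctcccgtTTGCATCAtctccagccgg
SLC7A1: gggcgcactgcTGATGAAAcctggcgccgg
PPP1R15A: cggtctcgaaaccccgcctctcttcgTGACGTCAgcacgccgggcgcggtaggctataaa

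Matches were also present in members that did not pass the test, and 3 of these are shown for comparison. They are CHAC1 (chr15:40953236-40953295, plus strand), CEBPG (chr19:33374045-33374104, plus strand) and ASNS (chr7:97872443-97872502, minus strand).
CHAC1: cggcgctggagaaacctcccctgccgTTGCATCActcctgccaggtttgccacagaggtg
CEBPG: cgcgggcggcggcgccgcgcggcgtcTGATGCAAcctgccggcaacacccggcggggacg
ASNS: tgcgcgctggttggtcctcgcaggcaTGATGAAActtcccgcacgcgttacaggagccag

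The other members that passed the test and had windows held neither motif, and the 100 bases before the first listed start are shown without capitals for them. They are GDF15 (chr19:18386058-18386157, plus strand), SESN2 (chr1:28259418-28259517, plus strand), TRIB3 (chr20:381195-381294, plus strand), SLC7A5 (chr16:87869508-87869607, minus strand), SLC6A9 (chr1:44031463-44031562, minus strand) and VLDLR (chr9:2621687-2621786, plus strand). A window of this length says nothing of elements that lie farther away.
GDF15: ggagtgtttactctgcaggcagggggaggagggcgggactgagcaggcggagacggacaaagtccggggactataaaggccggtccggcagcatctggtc
SESN2: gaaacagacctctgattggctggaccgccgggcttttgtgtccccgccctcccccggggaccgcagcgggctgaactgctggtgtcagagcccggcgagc
TRIB3: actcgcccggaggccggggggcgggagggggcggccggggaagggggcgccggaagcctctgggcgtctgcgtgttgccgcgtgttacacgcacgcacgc
SLC7A5: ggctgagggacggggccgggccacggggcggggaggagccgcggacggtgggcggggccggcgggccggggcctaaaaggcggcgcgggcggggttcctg
SLC6A9: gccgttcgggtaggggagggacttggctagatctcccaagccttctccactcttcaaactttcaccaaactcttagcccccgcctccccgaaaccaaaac
VLDLR: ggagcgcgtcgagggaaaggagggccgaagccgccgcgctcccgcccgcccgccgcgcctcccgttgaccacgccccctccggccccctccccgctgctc

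With DOX, 6 stress regulators and 4 amino acid transporters rose, and VLDLR, a receptor listed with the regulators, fell. No synthesis enzyme passed the test, and neither did the ATF4 transcript. Counts were tested with edgeR's quasi-likelihood model over 17026 genes, and a gene was called at a Benjamini-Hochberg adjusted p under 0.05. All 37 members were tested and 11 were called (29.7%), 10 higher and 1 lower, beside 4.87% of all tested genes (2.91% higher and 1.96% lower). By role, 6 of the 17 regulators were called higher and 1 lower, 4 of the 8 transporters were called higher, and none of the enzymes was (0 of 12 by edgeR and by DESeq2, with 1 at an unadjusted edgeR p under 0.05). Over all 17026 tested genes, 3597 had an unadjusted edgeR p under 0.05. The median log2 fold change of DOX-positive over DOX-negative was 0.25 for the regulators, 0.28 for the transporters and 0.066 for the enzymes, beside 0.00034 for all tested genes. The log2 fold change was above 0 for 30 of the 37 members, beside 50.1% of all tested genes. Groups of libraries did not overlap for 18 members higher and 2 members lower with DOX, beside 14.8% and 13.3% of all tested genes (28.1% in either direction). With DESeq2, 15 members were called, 14 higher and 1 lower, beside 8.43% of the genes with an adjusted p from that tool (4.68% higher and 3.74% lower). In bulk RNA, a change in the share of cells that express a gene and a change in the amount per cell cannot be told apart. The number of calls rested on single libraries, since GDF15 alone was called when either DOX-negative replicate 2 or replicate 3 was left out, and 4 members (GDF15, SESN2, TRIB3 and ATF3) when DOX-positive replicate 3 was.

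**Figure D1:**
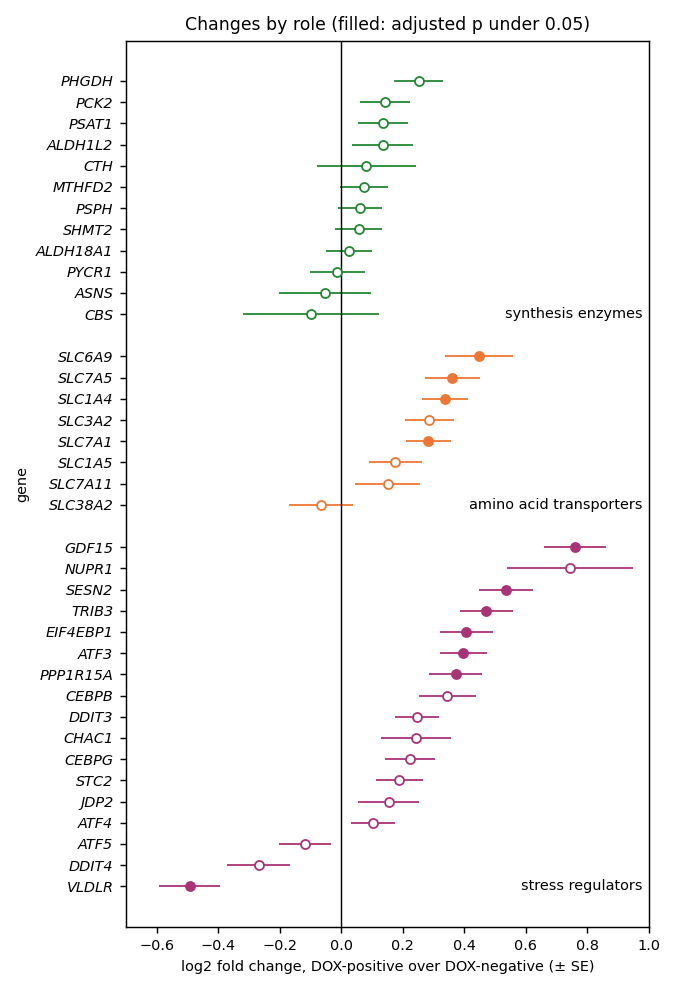
The log2 fold change of DOX-positive over DOX-negative (horizontal axis, with its standard error as bars) is plotted for each of the 37 members, grouped by role, and filled points passed an adjusted p of 0.05 in edgeR. Filled points stand among the transporters and regulators, from SLC7A1 at 0.28 to GDF15 at 0.76 and with VLDLR at -0.49, and none among the enzymes.

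Of the 9 stress effectors, 5 rose and 1 fell by edgeR and by DESeq2. Of all tested genes, edgeR called 2.91% higher and 1.96% lower. GDF15, a secreted stress cytokine of the TGF-β superfamily, was at 134.1, 125.4 and 111.9 CPM without DOX and at 180.6, 234.5 and 213.7 CPM with it, values being given for replicates 1, 2 and 3 in turn here and below. Its lowest DOX-positive library stood well above its highest DOX-negative library. GDF15 rose by 0.76 on the log2 scale (SE 0.10, edgeR adjusted p = 0.0031), a fold of 1.69, and was the only member still called in each of the 6 fits that left out 1 library, with changes from 0.67 to 0.86.

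SESN2 encodes a sestrin, a leucine sensor that restrains mTORC1. It measured 58.2, 51.9 and 52.5 CPM without DOX and 69.9, 84.4 and 81.6 CPM with DOX, with no overlap. It rose by 0.54 (SE 0.088, edgeR adjusted p = 0.0092). TRIB3, a pseudokinase that binds ATF4 and AKT, was at 41.1, 36.6 and 35.8 CPM without DOX and 48.4, 55.5 and 53.5 CPM with DOX, again without overlap, and rose by 0.47 (SE 0.087, edgeR adjusted p = 0.014).

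EIF4EBP1, the inhibitor of cap-dependent translation 4E-BP1, was at 74.4, 70.0 and 65.6 CPM without DOX and 84.0, 100.5 and 94.1 CPM with DOX, a log2 fold change of 0.41 (SE 0.085, edgeR adjusted p = 0.022). PPP1R15A (GADD34), the phosphatase subunit that removes the phosphate from eIF2α, was at 69.6, 68.1 and 59.5 CPM without DOX and 78.1, 88.8 and 88.5 CPM with DOX, a log2 fold change of 0.37 (SE 0.086, edgeR adjusted p = 0.031). For EIF4EBP1, RefSeq lists 2 pseudogenes, and how reads shared with such copies were counted is not given in the sources used here. Both calls were lost when DOX-negative replicate 2 or 3 or DOX-positive replicate 3 was left out, and over the 6 such fits the change was no lower than 0.35 for EIF4EBP1 and 0.30 for PPP1R15A.

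VLDLR, the receptor for very-low-density lipoprotein and for reelin, went the other way. It was at 64.1, 70.1 and 76.5 CPM without DOX and at 56.8, 47.9 and 44.9 CPM with DOX, so that all DOX-positive libraries lay below all DOX-negative ones. VLDLR fell by 0.49 on the log2 scale (SE 0.099, edgeR adjusted p = 0.019), and the call was lost in 7 of the 19 alternative fits. DDIT4 (REDD1), an inhibitor of mTORC1 that is also induced by hypoxia, had a negative value of -0.27 (SE 0.10, edgeR adjusted p = 0.15). Its values of 216.6, 245.8 and 277.6 CPM without DOX and 226.5, 204.8 and 182.7 CPM with DOX overlapped, since DOX-positive replicate 1 exceeded DOX-negative replicate 1.

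The remaining effectors were not called. CHAC1, which degrades glutathione and is a marker of the ATF4 and CHOP pathway, was scarce, averaging 9.15 ± 0.99 and 10.9 ± 1.10 CPM in vehicle and DOX libraries (SD, n = 3; log2 fold change 0.24, SE 0.11). STC2, a secreted glycoprotein hormone, was at 113.6 ± 3.34 and 129.4 ± 9.54 CPM (0.19, SE 0.076, edgeR adjusted p = 0.18), with no overlap between the groups.

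**Figure D2:**
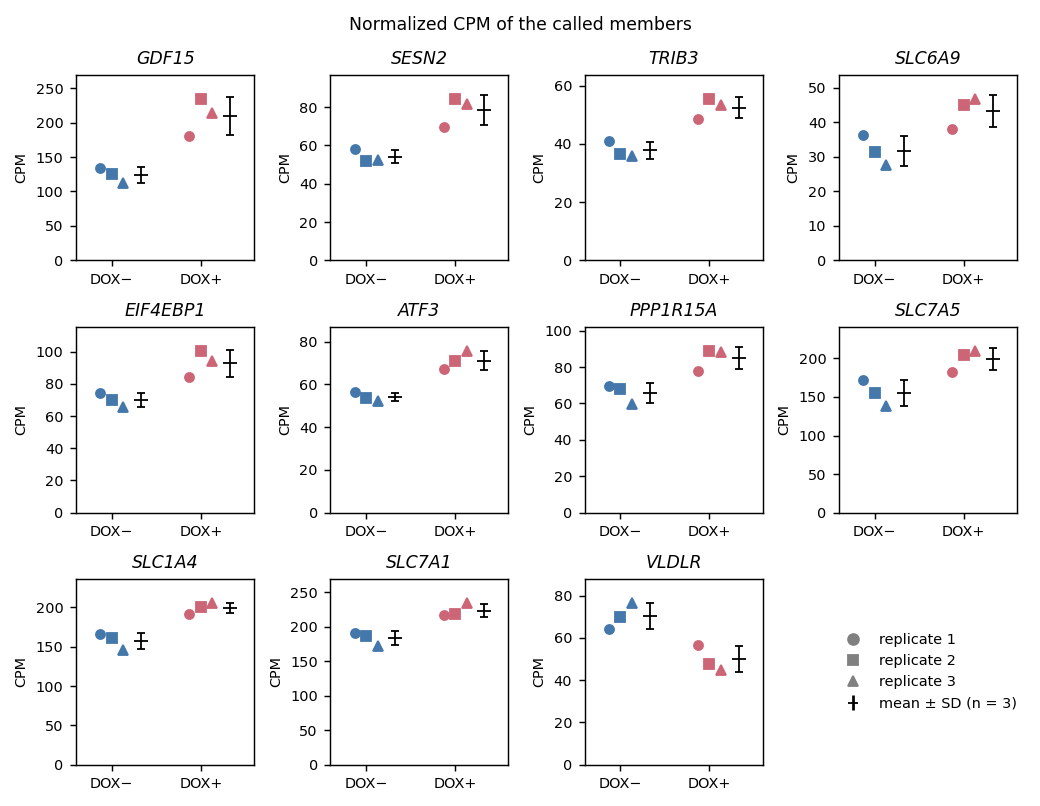
Normalized CPM (vertical axes, starting at 0) of the 11 called members is plotted for each library, with a marker shape per replicate number and the mean ± SD of the 3 libraries beside each group. GDF15 moves from a mean of 123.8 to 209.6 CPM and VLDLR from 70.2 to 49.9 CPM, and in the 10 members that rose the circle of DOX-positive replicate 1 is the lowest of its group.

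Among the 8 transcription factors edgeR called 1 higher, beside 2.91% of all tested genes. DESeq2 called 4 of them higher, beside 4.68% of the genes with an adjusted p from that tool. Groups did not overlap for 5 of the 8 factors and 6 of the 9 effectors higher with DOX, beside 14.8% of all tested genes. ATF3, a bZIP repressor and immediate stress factor, was at 56.2, 53.5 and 52.4 CPM without DOX and at 67.0, 70.9 and 75.7 CPM with DOX. The groups were far apart relative to their spread, and ATF3 rose by 0.40 (SE 0.076, edgeR adjusted p = 0.015).

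The transcript of ATF4 itself was the most abundant member per gene length, averaging 87.4 ± 14.3 and 95.5 ± 16.6 TPM in vehicle and DOX libraries (SD, n = 3). In CPM it was at 319.1, 308.3 and 292.6 without DOX and 317.1, 336.2 and 334.7 with DOX, with DOX-positive replicate 1 inside the DOX-negative range. The log2 fold change was 0.10 (SE 0.070, edgeR adjusted p = 0.44), with a 95% interval of -0.050 to 0.26. RefSeq lists 4 ATF4 pseudogenes, so that its count carries that uncertainty. ATF5, a close relative that guards mitochondrial proteostasis, was at 18.3, 19.3 and 17.2 CPM without DOX and 16.8, 17.1 and 16.5 CPM with DOX (-0.12, SE 0.084, edgeR adjusted p = 0.46). Its groups nearly touched, at 17.2 and 17.1 CPM, and it overlaps NUP62, a nuclear pore gene at 80.0 ± 5.66 CPM without DOX.

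A set of 3 factors was called by DESeq2 but not by edgeR. DDIT3, the pro-apoptotic factor CHOP, was at 61.2, 57.3 and 56.5 CPM without DOX and at 67.3, 70.1 and 70.4 CPM with DOX, a log2 fold change of 0.25 (SE 0.072, edgeR adjusted p = 0.070, DESeq2 adjusted p = 0.041). DDIT3 overlaps the methionyl-tRNA synthetase gene MARS, whose means were 302.9 ± 15.7 and 347.8 ± 17.3 CPM (SD, n = 3), and since the strand setting of the counting is not given in the sources used here, reads of the pair may be mixed. CEBPB, a bZIP partner of ATF4, was at 79.5, 73.5 and 65.4 CPM without DOX and at 86.8, 102.8 and 88.0 CPM with DOX (0.34, SE 0.094, edgeR adjusted p = 0.056, DESeq2 adjusted p = 0.018).

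NUPR1, a small stress-induced chromatin protein, had the second largest value of all members at 0.74 but also the largest spread among the regulators (SE 0.21). It was at 22.7, 19.2 and 13.3 CPM without DOX and at 23.9, 33.02 and 35.6 CPM with DOX, and the gap between the nearest libraries was small. It did not pass the edgeR test (adjusted p = 0.079) and passed that of DESeq2 (adjusted p = 0.00079). CEBPG, the other bZIP partner, averaged 211.2 ± 8.27 and 246.5 ± 24.2 CPM (SD, n = 3; 0.22, SE 0.083), and JDP2, a bZIP repressor, was at 24.4 ± 3.11 and 27.1 ± 0.78 CPM (0.15, SE 0.099). Neither was called by edgeR or DESeq2.

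Amino acid transporters were examined next. The 4 called transporters differ in their cargo. SLC6A9 (GLYT1), a glycine importer, was at 36.3, 31.3 and 27.6 CPM without DOX and 38.1, 45.04 and 46.8 CPM with DOX, and it had the largest rise of the group (0.45, SE 0.11, edgeR adjusted p = 0.042). SLC6A9 overlaps CCDC24, which was at 21.7 ± 0.57 and 20.9 ± 2.65 CPM in the respective groups (SD, n = 3; log2 fold change -0.054). The margin between the nearest SLC6A9 libraries was narrow, at 36.3 against 38.1 CPM.

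SLC7A5 (LAT1), the light chain of the exchanger for leucine and other large neutral amino acids, was at 171.7, 155.0 and 138.4 CPM without DOX and 182.7, 205.0 and 209.7 CPM with DOX. It rose by 0.36 (SE 0.090, edgeR adjusted p = 0.042), and RefSeq lists 2 pseudogenes of it. Its heavy chain SLC3A2 (CD98) was at 241.0, 220.5 and 222.8 CPM without DOX and 251.8, 299.2 and 283.6 CPM with DOX, without overlap (0.29, SE 0.081). SLC3A2 did not pass the edgeR test (adjusted p = 0.064) and passed that of DESeq2 (adjusted p = 0.027).

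SLC1A4 (ASCT1), a neutral amino acid exchanger that carries serine and alanine, was at 166.3, 161.0 and 146.5 CPM without DOX and 192.0, 200.9 and 205.5 CPM with DOX. It had the lowest adjusted p of the transporters, rising by 0.34 (SE 0.074, edgeR adjusted p = 0.026), and was called in 13 of the 19 alternative fits. SLC7A1 (CAT1), the importer of arginine and lysine, was at 190.9, 187.1 and 171.5 CPM without DOX and 216.8, 217.8 and 233.9 CPM with DOX, a rise of 0.28 (SE 0.073, edgeR adjusted p = 0.048). That call lay close to 0.05. It was absent from 13 of the 19 alternative fits, all of which gave a positive value.

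The other transporters were called by neither edgeR nor DESeq2. SLC1A5 (ASCT2), the glutamine importer, was at 230.1 ± 17.1 CPM without DOX and 259.8 ± 24.0 CPM with DOX (0.17, SE 0.087), and SLC7A11 (xCT), the cystine importer, at 85.3 ± 6.02 and 94.6 ± 14.4 CPM (0.15, SE 0.11), which was called only with GC and length trends removed (0.23, edgeR adjusted p = 0.018). SLC38A2 (SNAT2), the importer induced in amino acid starvation, was at 193.5 ± 11.9 and 184.9 ± 28.4 CPM (SD, n = 3; -0.065, SE 0.10). The 3 genes overlapped between the groups. When DOX-negative replicate 2 or 3 or DOX-positive replicate 3 was left out, 0 of the 8 transporters were called, while their median stayed between 0.25 and 0.33 over the 6 fits without 1 library.

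Synthesis enzymes were examined last, beginning with serine and one-carbon synthesis. PHGDH, the first enzyme of serine synthesis, was at 244.5, 227.8 and 225.3 CPM without DOX and at 259.6, 302.9 and 267.7 CPM with DOX. Its groups did not overlap, and its log2 fold change of 0.25 (SE 0.079) was the largest of the enzymes but did not pass the test (edgeR adjusted p = 0.089). The next enzymes of that pathway, PSAT1 at 0.13 (SE 0.081) and PSPH at 0.059 (SE 0.072), gave smaller values. SHMT2, which splits serine into glycine and a one-carbon unit in mitochondria, was at 0.057 (SE 0.076), and MTHFD2 and ALDH1L2, which carry that unit through the mitochondrial folate cycle, were at 0.074 (SE 0.077) and 0.13 (SE 0.100). All 6 values were positive and none was called. RefSeq lists 7 pseudogenes of MTHFD2, 4 of PSAT1 and 1 of PSPH.

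ASNS, asparagine synthetase and the classic amino acid response gene, was scarce in these cells. It was at 4.29, 4.15 and 4.98 CPM without DOX and at 3.97, 5.29 and 3.70 CPM with DOX, so that the groups overlapped entirely, with a log2 fold change of -0.053 (SE 0.15) and a 95% interval of -0.38 to 0.27. Its lowest library held 237 counts. RefSeq lists 4 ASNS pseudogenes, and the overlapping transcript CZ1P-ASNS was at 0.52 ± 0.19 CPM without DOX. The proline synthesis enzymes PYCR1 (-0.014, SE 0.089) and ALDH18A1 (0.024, SE 0.075) and the mitochondrial phosphoenolpyruvate carboxykinase PCK2 (0.14, SE 0.082) overlapped between the groups, as did the transsulfuration enzymes CTH (0.081, SE 0.16) and CBS (-0.099, SE 0.22). CBS had as few as 38 counts in a library. Copies of a gene were sought only as RefSeq pseudogenes that carry its symbol, so other copies of CBS would have been missed. Whether reads shared with such a copy lower its count was not tested. The upper end of the 95% interval was 0.43 or lower for each of the 12 enzymes.

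**Figure D3:**
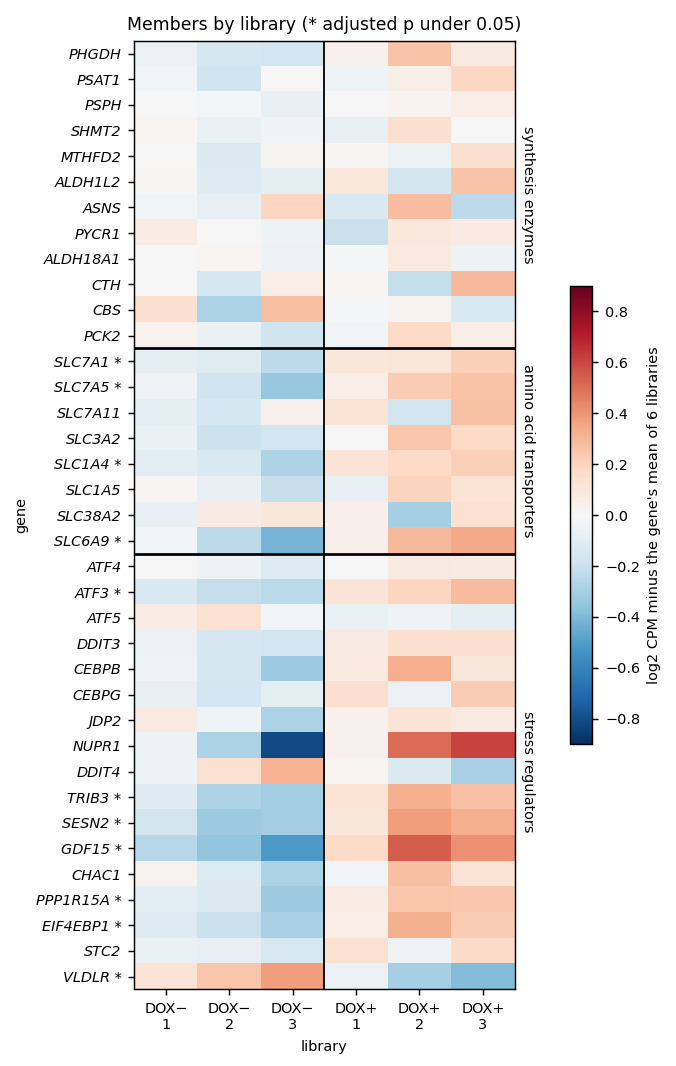
Each row is a member and each column a library, and the colour gives log2 CPM minus that gene's mean over the 6 libraries, from -0.9 (blue) to 0.9 (red), with called members starred. GDF15, SESN2, TRIB3 and NUPR1 turn from blue to red between the groups, VLDLR turns from red to blue, and enzyme rows such as ASNS and CBS hold red and blue in both groups.

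Levels per gene length varied widely among the enzymes. On the TPM scale, averaged over the 6 libraries, SHMT2 (84.8 TPM), PHGDH (73.4 TPM) and MTHFD2 (54.5 TPM) led the enzymes, PSAT1 (38.8 TPM) and PCK2 (24.9 TPM) followed, and ASNS (0.81 TPM), CTH (0.61 TPM) and CBS (0.058 TPM) were at the bottom. SHMT2 and PHGDH were within a standard deviation of each other in the DOX-positive libraries, at 87.0 ± 11.7 and 80.2 ± 10.9 TPM (SD, n = 3), but not in the DOX-negative ones, at 82.5 ± 11.01 and 66.6 ± 10.1 TPM. The same held for ASNS and CTH, at 0.80 ± 0.11 and 0.64 ± 0.18 TPM with DOX and 0.82 ± 0.032 and 0.58 ± 0.047 TPM without it. ASNS lay far under the next enzyme up, ALDH1L2, at 5.79 ± 1.65 TPM with DOX. SLC3A2 (49.0 TPM) and SLC1A5 (42.7 TPM) led the transporters, and ATF4 (91.4 TPM), DDIT4 (76.4 TPM), GDF15 (72.5 TPM) and EIF4EBP1 (64.5 TPM) led the regulators. In the DOX-negative libraries GDF15 was at 53.9 ± 10.9 TPM, below DDIT4 at 81.9 ± 7.96 TPM, and in the DOX-positive libraries it was at 91.2 ± 6.83 TPM beside 70.8 ± 20.6 TPM for DDIT4. The TPM total is dominated by a few short noncoding RNAs, since the 6 most abundant symbols (RN7SK, SNORD3A, RN7SL2, RN7SL1, RPPH1 and RMRP) held between 73.6% and 81.6% of it, so a shift in those RNAs moves the TPM of every other gene. In limma-trend fits on log2 TPM 0 of the members were called, although the medians of the regulators (0.26 to 0.27) and transporters (0.29 to 0.31) stood beside 0.25 and 0.28 with counts. The median SE of the members was 0.24 on log2(TPM + 1) with low TPM filtered out, against 0.087 with counts.

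**Figure D4:**
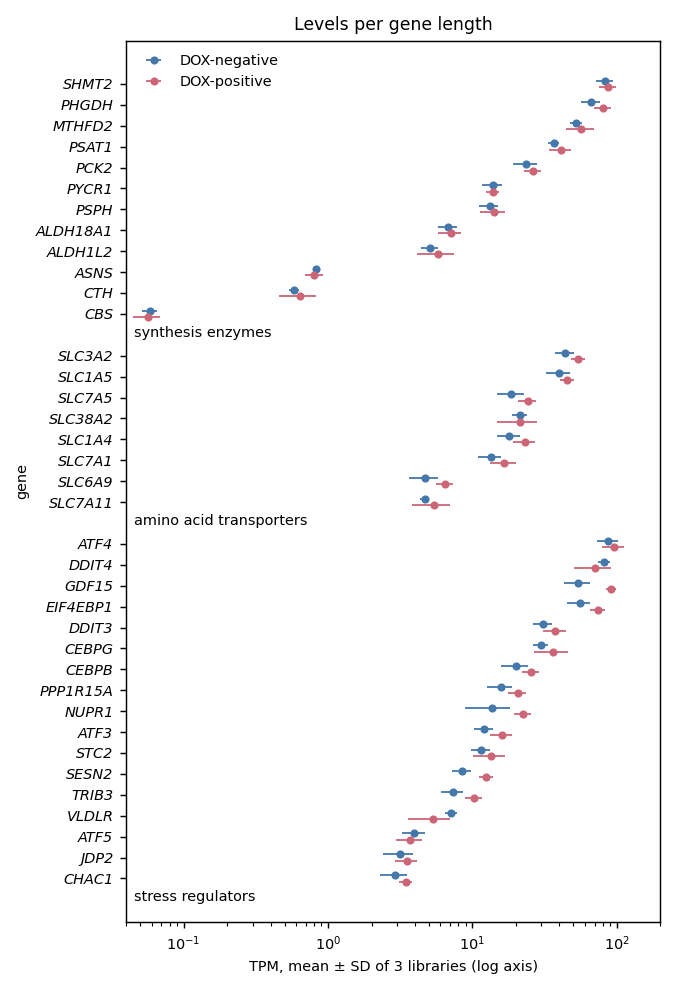
Levels in TPM (horizontal log axis) are plotted as mean ± SD of 3 libraries for each group and member, ordered by level within each role. SHMT2, ATF4 and SLC3A2 stand at the top of their groups, ASNS, CTH and CBS stand below 1 TPM, and GDF15 moves from 53.9 to 91.2 TPM.

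Within each group, the members that rose placed the libraries in much the same order. Across the 10 members that rose, DOX-positive replicate 1 was the lowest DOX-positive library in 10 of 10 and DOX-negative replicate 1 was the highest DOX-negative library in 10 of 10, and DOX-negative replicate 3 was the lowest in 9. VLDLR mirrored this, with its smallest difference between these same libraries. The median deviation of these 10 genes from their 6-library mean was -0.11, -0.21 and -0.31 on the log2 scale for the DOX-negative replicates in turn and 0.10, 0.27 and 0.26 for the DOX-positive ones. MUC1 did not follow that order, its DOX-positive values being 36.7, 37.2 and 29.9 CPM. The enzymes showed a narrower range, with median deviations from -0.094 to 0.071 over the 6 libraries. The order of the libraries was not counted over all tested genes, so whether it is particular to these members was not tested.

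Other genes of the pathway were then described from lists written from general knowledge. Counts at an unadjusted edgeR p under 0.05 here and in the next paragraph stand beside 3597 of all 17026 tested genes. Counts called stand beside 4.87% of all tested genes by edgeR and 8.43% of the genes with an adjusted p from DESeq2. In lists this short, counts of 0 or 1 are near those shares. Of 17 tested genes of the eIF2 arm, which are the eIF2α kinases, the subunits of eIF2 and eIF2B and their regulators, 0 were called by edgeR and 0 by DESeq2, with 1 at an unadjusted edgeR p under 0.05 (median 0.021, with values from -0.11 to 0.22). Of 18 endoplasmic reticulum chaperone and XBP1 arm genes, among them HSPA5, DNAJB9 and HERPUD1, 0 were called by either tool, again with 1 at an unadjusted p under 0.05 (median 0.020, with values from -0.15 to 0.20). Of 20 cytosolic aminoacyl-tRNA synthetases and the tRNA exporter XPOT, edgeR called 0 higher and 1 lower and DESeq2 0 higher and 2 lower, with a median of 0.082. The gene called by both was the aspartyl-tRNA synthetase gene DARS, which was at 65.2, 73.5 and 76.4 CPM without DOX and 57.8, 44.2 and 51.2 CPM with DOX and fell by 0.49 (SE 0.10, edgeR adjusted p = 0.021). The other was the tryptophanyl-tRNA synthetase gene WARS (-0.30, SE 0.093, edgeR adjusted p = 0.083, DESeq2 adjusted p = 0.039). The log2 fold change was above 0 for 16 of the 21 genes on this list and below 0 for 5, beside 50.1% of all tested genes above 0. Of the 21, 6 had an unadjusted edgeR p under 0.05. AARS, CARS, GARS and MARS were positive among them (0.17 to 0.23), and DARS and WARS negative. Groups did not overlap for 6 genes higher and 2 lower, beside 14.8% and 13.3% of all tested genes.

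Of 16 other serine, glycine and folate genes, 0 were called by edgeR and 0 by DESeq2, with 1 at an unadjusted p under 0.05 and a median of 0.032. Of 19 other amino acid enzymes, 0 were called by edgeR, with 3 at an unadjusted p under 0.05 and a median of 0.050. DESeq2 called 1 of them higher, the branched-chain aminotransferase gene BCAT1 (0.65, SE 0.19, edgeR adjusted p = 0.068, DESeq2 adjusted p = 0.043), at 1.74 ± 0.059 and 2.73 ± 0.69 CPM (SD, n = 3). Among 16 tested members of a list of 19 other amino acid transporters, edgeR called 1 lower and 0 higher, while DESeq2 called 2 lower and 1 higher. Their median was 0.10, with 11 above 0 and 5 below 0, and 6 had an unadjusted edgeR p under 0.05. The additional DESeq2 calls were SLC36A4 (-0.48, SE 0.13, DESeq2 adjusted p = 0.0077) and SLC7A7 (0.69, SE 0.20, DESeq2 adjusted p = 0.028). SLC36A1 (PAT1), a proton-coupled transporter of small amino acids found largely on lysosomes, was at 188.1, 215.4 and 217.7 CPM without DOX and at 134.3, 119.0 and 103.0 CPM with DOX. Its groups were far apart, and it fell by 0.80 (SE 0.099, edgeR adjusted p = 0.0024), outside the range of the 37 members (-0.49 to 0.76).

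**Figure D5:**
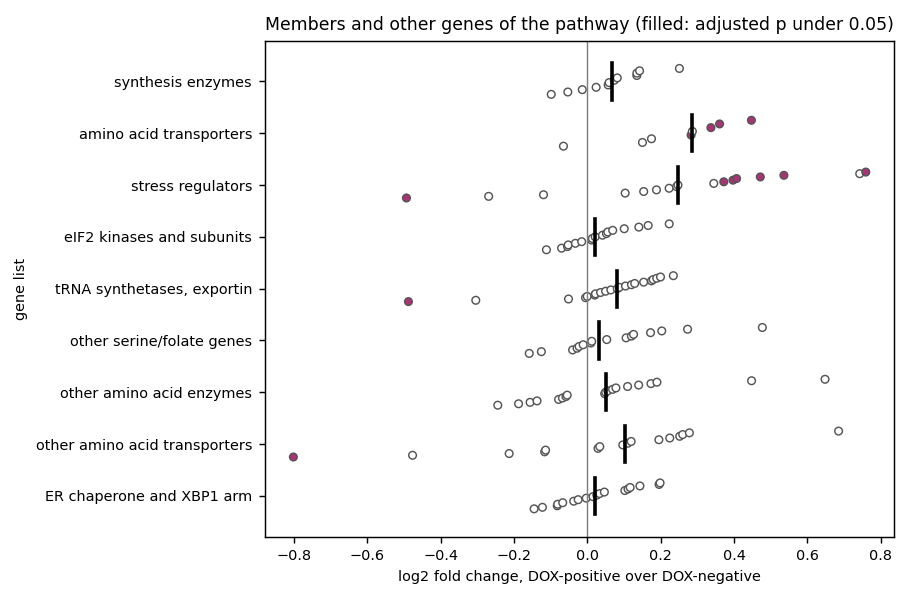
Each point is a tested gene at its log2 fold change of DOX-positive over DOX-negative (horizontal axis), each line of points is a list, the thick bar is the list's median and filled points passed an adjusted p of 0.05 in edgeR. The medians of the transporters (0.28) and regulators (0.25) lie to the right of those of the other lists, and SLC36A1 at -0.80 is the point farthest from 0.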

How the data were processed

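RNA of 3 samples a group was made into stranded mRNA libraries per the labels. Raw counts for each symbol were deposited by the authors, and the submitters' processing notes name STAR, DESeq2 and GRCh38 (hg38). TPM, a length-normalized unit scaled to one total in every library, were deposited by the authors too. The aligner version, annotation and strand setting are not given in the sources used here. All columns matched a sample by title.

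Counts were filtered with filterByExpr, scaled by TMM and tested with edgeR 4.0.16 (R 4.3.3; glmQLFit with robust estimation, glmQLFTest, no covariate, two-sided), with p values adjusted by Benjamini-Hochberg over 17026 genes. SE derive from the F statistic. The methods state that cells were cultured in triplicate. How separate those cultures were is not stated, so p values measure the spread between these libraries. An exact permutation test of 3 against 3 cannot give a p under 0.10, which is the value for each called member. Alternatives used DESeq2 1.42.0, limma 3.58.1 and the settings named under processing. The code was tested on simulated counts. No within-group pair was a repeated library, at a chi-square of 15.6 to 95.1 per degree of freedom.

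The members, lists and tests were chosen with earlier results of these data known. Members called, ATF4, ATF5, DDIT3, PHGDH, ASNS and those on which edgeR and DESeq2 differ are given per library, and from other lists up to 4 called genes. Promoter stretches are shown for called members outside chromosome 8, and CHAC1, CEBPG and ASNS were added after their values were seen. SLC36A4, SLC7A7, BCAT1, AARS, CARS, GARS, MARS, WARS and COL1A2 were also named after their values were seen.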

Additional observations from a re-analysis of the deposited data

How the results depend on the processing

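All 19 alternative fits were run. Of the values of single members under settings with all 6 libraries, 417 stayed on the same side of 0 and of the threshold, 42 lost their call, 13 gained one and 3 changed sign, and leaving out 1 library gave 174, 32, 6 and 10.

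The number of called genes, 829, became 1355 with DESeq2, 2107 with GC and length trends removed, 30 for log2(TPM + 1) and 35 for log2(TPM + 0.1) among genes averaging 1 TPM or more, and 0 on unfiltered log2(TPM + 1), where 1248 genes had an unadjusted p under 0.05. MUC1 changed by -1.22 in the last of these, with an adjusted p of 0.29, and was called in the other 18. Members called, 11, became 17 with GC and length trends removed (16 higher, 1 enzyme, PHGDH, among them) and 0 in each of the 3 TPM fits, where 0 transporters and 0 regulators were called. Called transporters, 4, became 1 without scaling factors and 1 with limma-voom. For all of these, the cause was not tested, beyond the fewer genes tested on filtered TPM and the larger SE given above.

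Leaving out 1 library gave 58 to 1035 called genes, 1 to 12 called members, 0 to 0 called enzymes, 0 to 4 called transporters and 1 to 9 called regulators. The lowest number of genes came without DOX-negative replicate 3 (58), then 127 for replicate 2 of that group and 375 for DOX-positive replicate 3, and each such fit also has fewer samples. Medians ranged from 0.041 to 0.095 for enzymes, 0.25 to 0.33 for transporters and 0.23 to 0.33 for regulators. Over these fits SHMT2 ranged from -0.0023 to 0.10, ASNS from -0.21 to 0.046, PYCR1 from -0.063 to 0.075, ALDH18A1 from -0.013 to 0.052, CTH from -0.059 to 0.19, CBS from -0.25 to 0.0015 and SLC38A2 from -0.15 to 0.057. The sign turned for SHMT2 (-0.0023), ALDH18A1 (-0.013) and SLC38A2 (0.057) without DOX-positive replicate 2, CTH (-0.059) and ASNS (0.046) without DOX-positive replicate 3, ASNS (0.021) and CBS (0.0015) when DOX-negative replicate 3 was left out, ASNS (0.0038) and PYCR1 (0.075) when DOX-positive replicate 1 was, PYCR1 (0.016) without DOX-negative replicate 1, and PYCR1 on log2(TPM + 1) (0.0040, with and without the filter) and log2(TPM + 0.1) (0.0047).

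With the replicate block 998 genes and 11 members were called, with CEBPB in place of SLC7A1. Whether same-numbered libraries were handled together is not given in the sources used here. Their deviations from the group means correlated at -0.55, 0.031 and -0.094 across 14256 genes. These values do not show pairing, and they cannot decide how the cultures were handled. ASNS, CTH and CBS were under the minimum in the filtered TPM fits and gave no value there.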
